A study of Mus musculus with 12 samples.

Results

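The comparison described here is that of 3 whole brains of embryonic mice labelled as conditional knockouts of the (pro)renin receptor, (P)RR, with 3 whole brains labelled as wild type, at embryonic day 15. The 6 libraries were taken by their tissue label from the 12 of the series. The other 6 are primary neurospheres from embryonic day 16, suspended balls of cultured neural stem and progenitor cells, and they serve below as a second tissue. Brains of the knockout group carry the genotype label (P)RR_CKO and titles with fy/cre, and are called CKO brains. Control brains carry the genotype label Wildtype and titles with fy/-. All are labelled male and C57BL/6J. Per the title of the series, the receptor is missing specifically in neural stem cells (NSC). No source used here states which promoter drives Cre or which exons it deletes, and the labels do not say whether the 3 brains of a group came from separate animals or litters. All p-values therefore measure the spread between these libraries, which may be technical. The question put to the data is which genes differ between CKO and control brains.

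The receptor is encoded by Atp6ap2, on the X chromosome. It was first described as a binding partner of renin and prorenin, and it is also an accessory protein of the V-ATPase, the proton pump that acidifies lysosomes and other vesicles. Several of the genes below belong to the integrated stress response. In that pathway kinases such as PERK, which senses unfolded proteins in the endoplasmic reticulum (ER), phosphorylate the initiation factor eIF2, most translation slows, and the transcription factor ATF4 is made. ATF4 in turn activates genes of amino acid uptake, amino acid synthesis and tRNA charging. Radial glia are the neural stem cells of the embryonic brain, from which neurons and later astrocytes arise, and both they and young astrocytes express Fabp7, Ptprz1 and Aldh1l1.

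The brain libraries held 5669338 to 6675874 exon reads each and 1129842 to 1334954 reads across exon-exon junctions. Reads inside genes but outside exons, called intron reads here, made up 63.8 to 65.5% of gene reads, with means of 64.5% in CKO and 64.9% in control brains (two-sided exact permutation p = 0.6, where the smallest possible with 3 against 3 is 0.1). Levels are given as normalised CPM, which are exon reads scaled to a common library total with TMM factors. The first principal component, with 33.1% of the variance, set apart control brain 1 and CKO brain 1 from the other 4 libraries, and the second, with 22.7%, separated the groups. Those libraries also differed in Hox genes, which are expressed in the hindbrain and spinal cord and not in the forebrain. Summed over 7 Hox genes, control brains 1 to 3 held 2.00, 254 and 65.0 reads, and CKO brains 1 to 3 held 5.00, 768 and 280.0. Both libraries numbered 1 were thus almost without Hox reads, and CKO brain 2 had the most. For that reason counts are also given from a fit with the summed Hox level as a covariate and from a fit without both libraries numbered 1, each chosen after these values were seen. Reads of Y-linked genes were present in all 6 libraries, which matches the label male.

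Atp6ap2 itself was not detectably lower in whole CKO brains. Its exon reads gave 64.7, 67.1 and 78.3 normalised CPM in control brains 1 to 3 and 60.6, 67.6 and 64.8 in CKO brains 1 to 3, and these ranges overlapped. The log2 fold change, CKO over control, was -0.12 ± 0.09 (SE, n = 3 per group; edgeR quasi-likelihood adjusted p = 0.792). Reads across exon-exon junctions gave -0.12 ± 0.14 (adjusted p = 0.915), from only 89 to 111 reads per library. Intron reads pointed the other way, with 21.3, 21.4 and 19.2 CPM in control and 22.5, 26.2 and 27.5 CPM in CKO brains. Every CKO library lay above every control library there, but the fold change of 0.30 ± 0.11 did not pass (adjusted p = 0.499). The difference between the exon and the intron change was -0.41 ± 0.12, also short of the threshold (adjusted p = 0.553). In bulk tissue a lower level per cell and fewer cells of a type cannot be told apart, and reads from cells outside the neural stem cell lineage, or from exons left in place, enter these counts. Of 18 V-ATPase subunits and accessory proteins tested, Atp6ap2 included, Atp6v0a1 alone was called, as lower (-0.44 ± 0.08; adjusted p = 0.0427), and the list had a median log2 fold change of 0.02. This exon call was lost in each of the 6 fits that leave out 1 library, at adjusted p-values of up to 0.219.

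Of 13557 genes tested with exon reads, 33 were higher in CKO brains, which is 0.243%, and 27 were lower, which is 0.199%, at an adjusted p under 0.05. An unadjusted p under the same value was found for 1187 genes. Over all genes tested the median log2 fold change was 0.0032 and the quartiles were -0.09 and 0.11 after TMM scaling. The 33 risen genes are led by amino acid transporters and enzymes, effectors of ATF4, ER proteins and a few microglial genes. Those that fell are led by genes of radial glia and astrocytes. With the summed Hox level as a covariate, 223 genes were higher, which is 1.64%, and 184 lower, which is 1.36%, and all 60 of the genes called without it were among them. Without both libraries numbered 1, with 2 libraries left per group, 5 were higher (0.0365%) and 15 lower (0.11%), and 17 of the 60 were still called. All 60 kept their sign, which was all but fixed beforehand, since the groups did not overlap for any called gene. Each library, when left out, lowered them: control brain 3 to 2 higher and 1 lower, control brain 1 to 4 and 6, control brain 2 to 6 and 6, CKO brain 3 to 6 and 9, CKO brain 2 to 12 and 12 and CKO brain 1 to 12 and 24. Fabp7 and Slc7a3 were called in each of these 6 fits and 29 of the 60 in none of them. Calls within the lists below stand against these shares of all genes, 0.243% higher and 0.199% lower without the covariate. Below, the values of the 15 genes with the lowest p in each direction are given in every library.

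**Figure D1:**
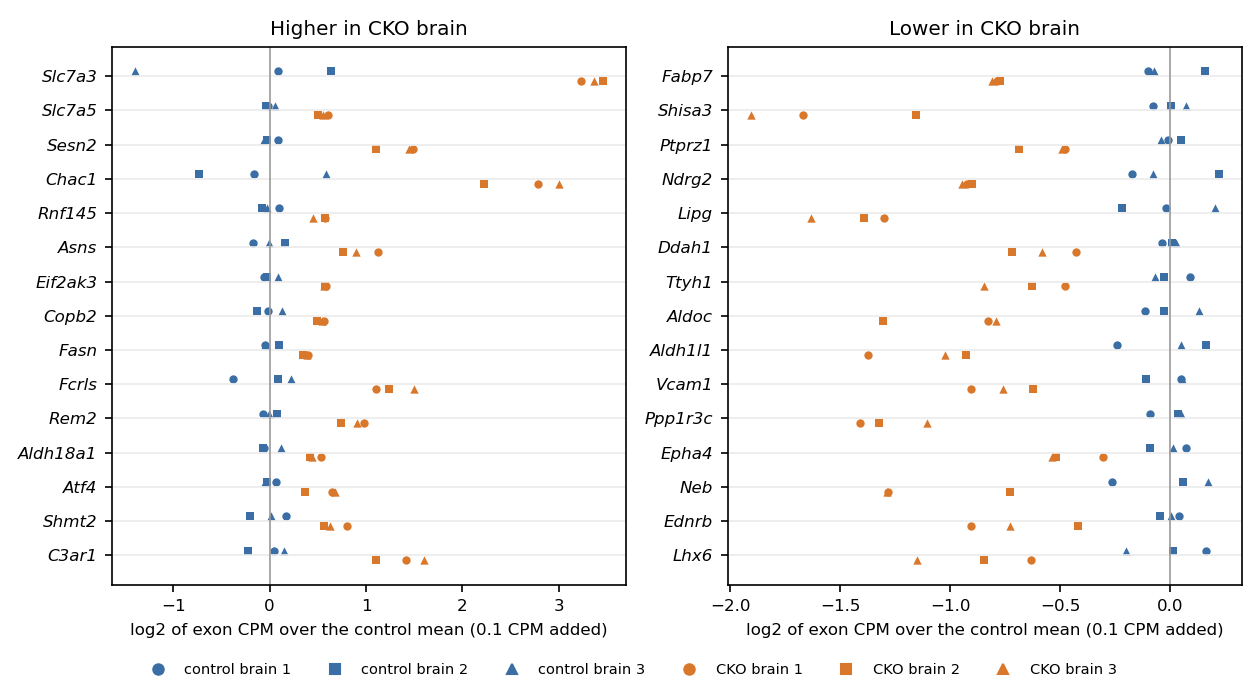
Exon level of 30 called genes in each of the 6 brain libraries, as log2 of normalised CPM over the mean of the control brains, with 0.1 CPM added to both; blue marks stand for control and orange marks for CKO libraries, and the mark shape for the library number. For each gene the orange marks lie wholly to one side of the blue ones, from Slc7a3, with a log2 fold change of 3.48, to Shisa3, with -1.54.

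Among the sensors and regulators that lead to ATF4, the kinase gene Eif2ak3 and Atf4 itself rose. Eif2ak3 encodes PERK, the ER-resident kinase of eIF2. It held 43.2, 44.4 and 47.8 CPM in control brains 1 to 3 and 67.9, 67.0 and 66.9 in CKO brains 1 to 3, a log2 fold change of 0.58 ± 0.08 (edgeR adjusted p = 0.0138). Atf4 held 74.6, 70.1 and 68.9 CPM in control and 111, 91.7 and 114 CPM in CKO brains (0.57 ± 0.09; adjusted p = 0.0327). In both genes the groups were apart, and CKO brain 2 was the lowest CKO library for Atf4. Of 14 listed sensors and regulators tested, these 2 rose and 0 fell, and the median was 0.21, against 0.0032 over all genes. Next by p were Atf3, a stress-induced relative of ATF4, with 1.94 ± 0.39 (adjusted p = 0.0731), and Trib3, a pseudokinase induced by ATF4, with 1.86 ± 0.39 (adjusted p = 0.0855). Neither passed, although Trib3 held 0.758, 0.532 and 0.788 CPM in control and 2.40, 2.57 and 2.78 CPM in CKO brains. With the Hox covariate both passed, at adjusted p-values of 0.0353 and 0.0373. The genes of the other eIF2 kinases had log2 fold changes of -0.02 (Eif2ak1), 0.23 (Eif2ak2) and -0.07 (Eif2ak4), none of which passed. Of the 6 fits that leave out 1 library, Eif2ak3 was called in 2 and Atf4 in 1, and they reached adjusted p-values of up to 0.0742 and 0.213.

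Among effectors of ATF4, Chac1 and Sesn2 rose. Chac1, an enzyme that breaks down glutathione, was low in control brains, with 1.36, 0.887 and 2.36 CPM, and held 11.2, 7.55 and 13.0 CPM in CKO brains. Its log2 fold change was 2.75 ± 0.34 (edgeR adjusted p = 0.0104). Sesn2, a sestrin that restrains mTORC1 when amino acids are short, went from 8.04, 7.45 and 7.25 CPM in control brains 1 to 3 to 21.4, 16.4 and 20.8 CPM in CKO brains 1 to 3 (1.36 ± 0.16; adjusted p = 0.00951). CKO brain 2 was the lowest of the CKO libraries for both, and still lay above every control library. Of 14 effectors tested, these 2 rose and 0 fell, with a list median of 0.42 and 12 positive values. The groups did not overlap, upwards, for 8 of the 14, against 7.24% of all genes tested, and for 0 downwards, against 7.16%. Among them Eif4ebp1, an inhibitor of cap-dependent translation, had 1.24 ± 0.26 (adjusted p = 0.0840), the alanine transaminase gene Gpt2 0.39 ± 0.09 (0.108), the stanniocalcin gene Stc2 1.21 ± 0.27 (0.110) and Vegfa 0.37 ± 0.10 (0.190). With the Hox covariate 6 effectors rose and Ndrg1 fell, where 1.64% of all genes rose and 1.36% fell. Gdf15 and Fgf21, secreted signals of the stress response, and Pmaip1 had too few reads to be tested. Sesn2 was called in 5 of the 6 fits that leave out 1 library and Chac1 in 4, with adjusted p-values of up to 0.0823 and 0.0566.

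Promoter sequences are shown for Chac1 and Asns, the asparagine synthetase gene described next, because both genes rose and a stretch bound by ATF4 in dimers with C/EBP proteins, TGATGNAA or its reverse complement TTNCATCA, is found there. The sequences are from RefSeq on GRCm38.p6, run 5' to 3' on the gene's strand from 250 bases before to 50 bases after the start site, and capitals mark the match. The Chac1 promoter is at chr2:119350992-119351291 on the plus strand, and its match begins at position -193 from the start site. That of Asns is at chr6:7693160-7693459 on the minus strand, with its match at position -23.
Chac1: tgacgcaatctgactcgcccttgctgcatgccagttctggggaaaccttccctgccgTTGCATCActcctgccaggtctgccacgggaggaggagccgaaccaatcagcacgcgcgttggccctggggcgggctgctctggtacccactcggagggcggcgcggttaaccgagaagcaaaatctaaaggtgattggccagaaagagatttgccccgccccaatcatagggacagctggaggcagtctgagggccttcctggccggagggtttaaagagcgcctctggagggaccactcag
Asns: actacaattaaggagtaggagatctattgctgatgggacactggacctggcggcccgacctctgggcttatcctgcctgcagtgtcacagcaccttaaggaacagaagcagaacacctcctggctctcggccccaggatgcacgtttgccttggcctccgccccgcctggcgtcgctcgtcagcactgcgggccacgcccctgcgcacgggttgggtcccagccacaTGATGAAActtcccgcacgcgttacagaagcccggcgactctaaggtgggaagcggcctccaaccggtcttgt
On either strand the motif was present in 3.97% of 32851 promoters of this length and in at least 1 promoter of 4.51% of 27025 genes. Of 16 called higher genes of the stress lists that were searched, 13 had a promoter in the RefSeq table and 4 of these held a match, namely Chac1, Asns, Iars and Aars. Over all called higher genes that were searched, 24 had a promoter and 5 held a match, Rem2 in addition. Of 26 genes that fell and were searched, 21 had one and 0 held a match. The promoters of Sesn2 and Eif2ak3 held no such letters in this window. A match describes the letters only.

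Amino acid transporters included the gene with the largest rise among the 60 calls. Slc7a3, a carrier of arginine, lysine and other cationic amino acids, held 1.06, 1.60 and 0.315 normalised CPM in control brains 1 to 3 and 10.1, 11.9 and 11.1 in CKO brains 1 to 3. The CKO libraries were close to each other and all above the control libraries, with a log2 fold change of 3.48 ± 0.36 (SE, n = 3 per group; edgeR adjusted p = 0.00588). Slc7a5, the carrier of large neutral amino acids, is expressed far more strongly in these brains, and went from 96.1, 94.9 and 102 CPM in control to 149, 138 and 144 CPM in CKO brains (0.56 ± 0.07; 0.00951). Slc3a2, the partner chain that Slc7a5 needs at the cell surface, rose as well (0.38 ± 0.07; 0.0480). Of 16 transporters tested, these 3 rose and 0 fell, with a median of 0.15. Slc7a11, the cystine carrier, had 0.50 ± 0.13 and did not pass by exon reads (0.192). Its intron reads did pass, at 0.63 ± 0.11 (adjusted p = 0.0373), though in none of the 6 fits that leave out 1 library. By exon reads Slc7a5 was called in 5 of these fits and Slc3a2 in 0, with adjusted p-values of up to 0.0519 and 0.229.

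Some enzymes that make asparagine, proline and one-carbon units rose in the same brains. Asns held 22.6, 28.6 and 25.5 CPM in control brains 1 to 3 and 55.8, 43.4 and 47.8 in CKO brains 1 to 3, with CKO brain 1 highest and no overlap (0.94 ± 0.13; edgeR adjusted p = 0.0138). Aldh18a1, the first enzyme of proline synthesis, went from 85.5, 85.0 and 96.5 CPM to 129, 119 and 121 CPM (0.47 ± 0.07; 0.0327). Shmt2, which moves a carbon of serine into the mitochondrial folate pool, went from 41.5, 32.1 and 37.2 CPM to 64.3, 54.8 and 57.0 CPM (0.66 ± 0.11; 0.0405). For all 3 the lowest CKO library was CKO brain 2, which still exceeded each control library. Mthfd2, the next enzyme of the mitochondrial folate pathway, rose by 0.69 ± 0.12 (0.0427). Of 15 enzymes tested, these 4 rose and 0 fell, and the median was 0.37, with 13 positive and 2 negative values. The listed genes of serine synthesis were near 0 and did not pass. Phgdh had -0.09 (0.873), Psat1 0.12 (0.911) and Psph 0.08 (0.963). Summed over the list, control brains held 559, 527 and 574 CPM and CKO brains 757, 633 and 659.8 CPM. Cytosolic aminoacyl-tRNA synthetases, which charge tRNAs with amino acids, were tested as a list of their own. Of 19 tested, 4 rose and 0 fell: Cars by 0.62 ± 0.10, Nars by 0.40 ± 0.07, Iars by 0.41 ± 0.07 and Aars by 0.33 ± 0.06, at adjusted p-values of 0.0411, 0.0411, 0.0427 and 0.0480. The list had a median of 0.22 and 17 positive values. With the Hox covariate 9 of its members rose and 0 fell, against 1.64% and 1.36% of all genes. The methionyl-tRNA synthetase gene, listed as Mars1 and outside the list, rose in exon-exon reads (0.52 ± 0.10; adjusted p = 0.0127) and had 0.42 ± 0.08 in exon reads (0.0637). Of the 6 fits that leave out 1 library, Asns was called in 3. Aldh18a1, Shmt2, Mthfd2, Cars, Nars, Iars and Aars were called in 0. The adjusted p-values of these exon calls reached up to 0.226.

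Some genes of the ER and of the early secretory route rose as well. Hspa5, the main ER chaperone BiP, held 268, 276 and 314 CPM in control brains 1 to 3 and 374, 373 and 374 in CKO brains 1 to 3 (0.39 ± 0.07; edgeR adjusted p = 0.0427). Calr, the chaperone calreticulin, rose by 0.29 ± 0.05 (0.0461). These were the 2 calls among 20 ER chaperones and genes of ER-associated degradation, of which 0 fell. All 20 of the 20 had positive values, with a median of 0.24, and the groups did not overlap for 16, against 7.24% of all genes upwards. The list summed to 2747, 2631 and 2814 CPM in control and 3284, 3258 and 3181 CPM in CKO brains. Sdf2l1, a BiP cofactor, had 0.77 ± 0.18 (0.147), the disulfide isomerase gene Pdia6 0.33 ± 0.07 (0.0976), the chaperone gene Hyou1 0.29 ± 0.07 (0.118) and Manf, a secreted ER stress factor, 0.33 ± 0.08 (0.129). None of these 4 passed, and with the Hox covariate all 4 did, among 9 of the list, against 1.64% of all genes upwards. Copb2, a subunit of the COPI coat that returns vesicles from the Golgi to the ER, went from 130.1, 121 and 144 CPM in control to 194, 185 and 192 CPM in CKO brains (0.53 ± 0.07; 0.0138). Kdelr2, the receptor that retrieves escaped ER proteins, rose by 0.49 ± 0.08 (0.0405), and Srpr, the ER receptor of the signal recognition particle, by 0.48 ± 0.08 (0.0435). Of these, Copb2 was still called in 2 of the 6 fits that leave out 1 library, and the others in 0, with adjusted p-values of up to 0.0737 and 0.226.

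Other risen genes fall outside the stress lists. Rnf145, an ER ubiquitin ligase linked to sterol synthesis, went from 168, 149 and 153 CPM in control brains 1 to 3 to 233, 233 and 214 CPM in CKO brains 1 to 3 (0.53 ± 0.07; edgeR adjusted p = 0.0110). Fasn, the fatty acid synthase, went from 699.9, 775 and 700.1 CPM to 957, 923 and 949 CPM (0.38 ± 0.06; 0.0244). Rem2, a small GTPase that inhibits voltage-gated calcium channels, went from 10.3, 11.4 and 10.7 CPM to 21.4, 18.2 and 20.3 CPM (0.89 ± 0.14; 0.0292). In all 3 the groups were apart, and the 3 CKO libraries differed little from each other. The SH2-domain adaptor gene Sh2d3c rose by 0.63 ± 0.11, the homeobox gene Shox2 by 0.57 ± 0.10, the imprinted gene Peg10 by 0.33 ± 0.06, the AP-1 subunit gene Jund by 0.38 ± 0.07 and the chromatin gene Morf4l2 by 0.31 ± 0.06. Their adjusted p-values lay between 0.0411 and 0.0480, and none of these 5 was called in a fit that leaves out 1 library, where they reached up to 0.237. Rnf145 was called in 4 of these fits, Fasn in 2 and Rem2 in 1.

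**Figure D2:**
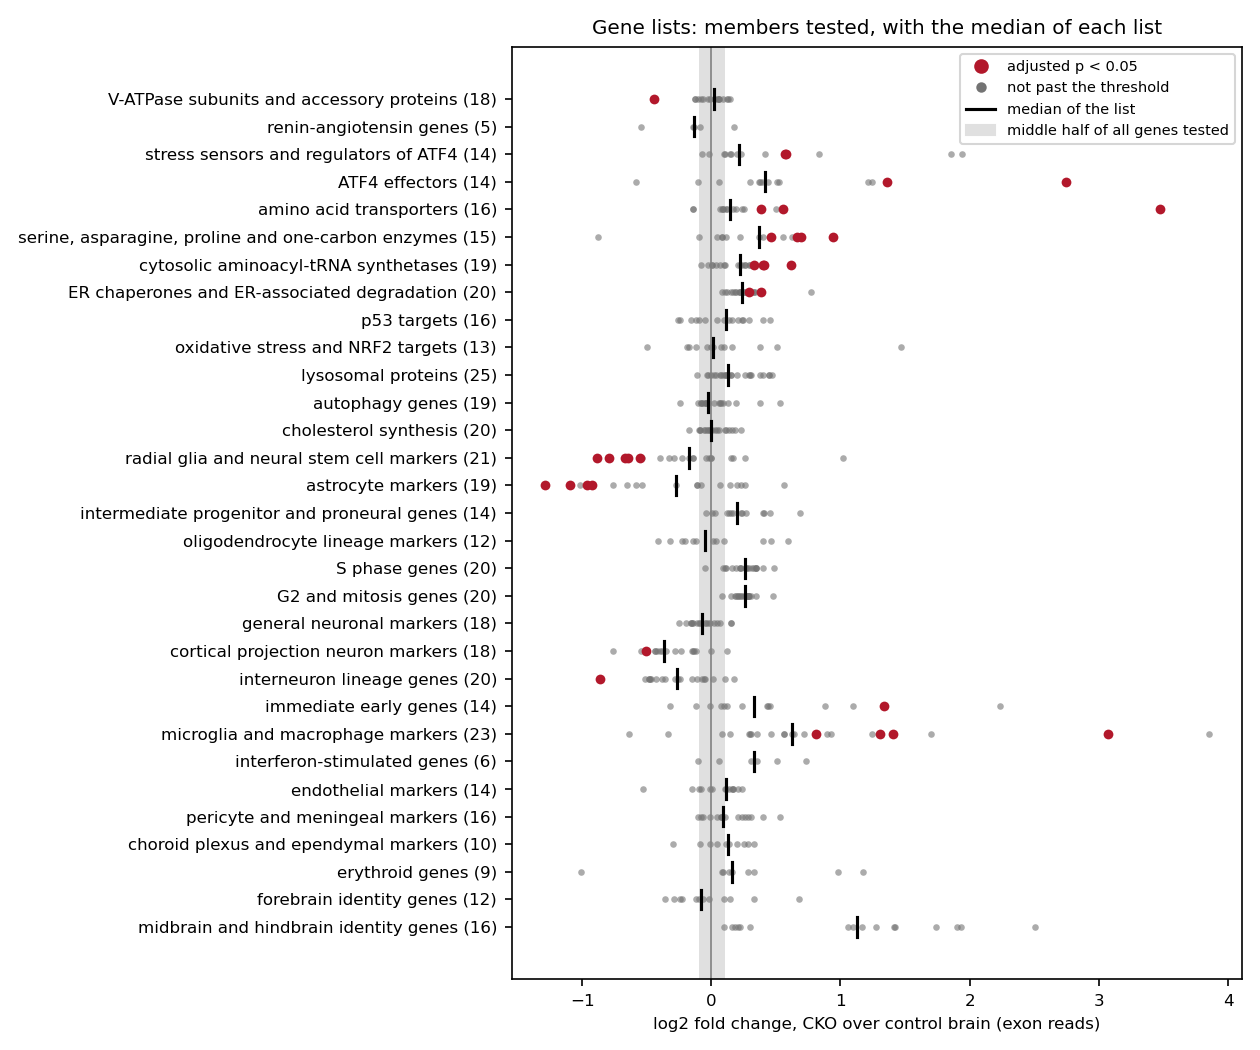
Log2 fold change (CKO over control brain, exon reads) of each tested member of 31 gene lists, with the number tested in brackets; red points passed at an adjusted p under 0.05, black bars are list medians and the grey band runs between the quartiles of all genes tested. Red points lie to the right in the stress and amino acid lists and to the left in the radial glia and astrocyte lists, and the bar furthest right is that of the midbrain and hindbrain genes, at 1.13, with 0 red points.

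Radial glia genes fell in part. Fabp7, the brain fatty acid-binding protein of radial glia, went from 228, 272 and 232 CPM in control brains 1 to 3 to 141, 143 and 139 CPM in CKO brains 1 to 3 (-0.79 ± 0.08; edgeR adjusted p = 0.00535). Ptprz1, a receptor phosphatase of the radial glial surface, went from 536, 557 and 524 CPM to 387, 334 and 383 CPM (-0.55 ± 0.07; 0.00951). Ttyh1, a membrane protein of neural stem cells, went from 177, 163 and 158 CPM to 119, 107 and 92.2 CPM (-0.64 ± 0.09; 0.0159). Each control library exceeded each CKO library for these 3, and the CKO values of Fabp7 spanned only a few CPM. Ednrb, the endothelin receptor B, held 108, 101 and 105 CPM in control and 55.8, 78.2 and 63.1 CPM in CKO brains (-0.67 ± 0.11; 0.0405), and Mfge8, a secreted glycoprotein, fell as well (-0.89 ± 0.16; 0.0480). Ptn, the secreted factor pleiotrophin that binds the Ptprz1 receptor, fell too (-0.42 ± 0.08; 0.0480). Of 21 radial glia and neural stem cell markers tested, 5 fell and 0 rose, with a median of -0.17. The transcription factors that define these cells did not pass: Sox2 had -0.17 ± 0.14, Pax6 -0.14 ± 0.16, Hes1 0.00147 and Lhx2 -0.02, while Hes5 had -0.54 ± 0.16 (0.265). Nestin (Nes) had 0.16 ± 0.14, and Hopx, a marker of outer radial glia in primates, 1.02 ± 0.25 with its groups apart (0.153). With the Hox covariate 6 markers fell, against 1.36% of all genes, and Vim, the intermediate filament vimentin, rose (0.30 ± 0.05; 0.00276). Fabp7 was called in every fit that leaves out 1 library, while the other 5 calls of this paragraph reached adjusted p-values of up to 0.242.

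Astrocyte markers, most of which radial glia also express at this stage, fell in 4 of 19 tested and rose in 0. The median was -0.27, with 13 negative and 6 positive values. Among the positive ones were Apoe with 0.57, Id3 with 0.26 and Gja1 with 0.20, none of which passed. Ndrg2 held 51.4, 67.6 and 55.0 CPM in control brains 1 to 3 and 30.5, 31.0 and 30.1 in CKO brains 1 to 3 (-0.92 ± 0.11; edgeR adjusted p = 0.00951). Aldoc, aldolase C, went from 51.6, 54.6 and 61.0 CPM to 31.4, 22.5 and 32.1 CPM (-0.96 ± 0.13; 0.0159), with CKO brain 2 lowest. Aldh1l1, a cytosolic folate enzyme, went from 23.0, 30.5 and 28.2 CPM to 10.5, 14.3 and 13.4 CPM (-1.09 ± 0.16; 0.0176), with CKO brain 1 lowest. Ppp1r3c, which targets a phosphatase to glycogen, went from 9.55, 10.5 and 10.6 CPM to 3.77, 4.02 and 4.69 CPM (-1.29 ± 0.20; 0.0292). No control and CKO library crossed in these 4 genes. The glutamate transporter genes differed from each other in value, with -0.29 ± 0.10 for Slc1a3, listed with radial glia (0.359), and 0.06 ± 0.06 for Slc1a2 (0.861), and neither passed. Gfap, the filament of mature astrocytes, was too low to be tested. With the Hox covariate 7 of the markers fell, Slc4a4, Clu and Mlc1 in addition, against 1.36% of all genes. In the fits without single libraries the 4 calls reached adjusted p-values of up to 0.156, and Ndrg2 was called in 5 of the 6.

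Further genes with the lowest p among those that fell included ones of membrane, secreted and cytoskeletal proteins. Shisa3, whose family holds back Wnt and FGF receptors in the ER, went from 22.4, 23.8 and 24.9 CPM in control brains 1 to 3 to 7.38, 10.6 and 6.25 CPM in CKO brains 1 to 3 (-1.54 ± 0.18; edgeR adjusted p = 0.00951). Lipg, the endothelial lipase, went from 13.5, 11.7 and 15.8 CPM to 5.49, 5.14 and 4.34 CPM (-1.45 ± 0.20; 0.0138). Ddah1, which degrades an inhibitor of nitric oxide synthase, went from 137, 141 and 143 CPM to 104, 85.2 and 93.5 CPM (-0.57 ± 0.08; 0.0138). The CKO libraries held less than the control libraries throughout, by the widest margin in Lipg and Shisa3. Vcam1, an adhesion molecule found on neural stem cells and vessels, went from 35.6, 31.9 and 35.8 CPM to 18.4, 22.3 and 20.3 CPM (-0.76 ± 0.12; 0.0292). Epha4, an ephrin receptor, went from 319.6, 285 and 306 CPM to 245, 212 and 209 CPM (-0.45 ± 0.07; 0.0405). Neb, nebulin of the thin filament, went from 23.0, 28.9 and 31.2 CPM to 11.3, 16.7 and 11.3 CPM (-1.07 ± 0.18; 0.0405). The groups stayed apart in these 3 as well, and of all 6 genes Shisa3 was called most often, in 5 of the 6 fits without a library, the others reaching adjusted p-values of up to 0.226. Also lower were the zinc finger gene Zeb2 (-0.42 ± 0.07), the matrix gene Vit (-1.02 ± 0.18), the protease gene Adamts18 (-0.77 ± 0.14), Ttc28 (-0.30 ± 0.05), the kainate receptor gene Grik3 (-0.34 ± 0.06), the cytokine suppressor gene Socs2 (-0.48 ± 0.09), the potassium channel gene Kcnq3 (-0.47 ± 0.09) and the synaptic adhesion gene Slitrk2 (-0.55 ± 0.10), with adjusted p-values of 0.0427 to 0.0480. Zeb2 and Kcnq3 were called in 1 of the 6 fits without a library and the rest of these in 0, at adjusted p-values of up to 0.246.

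Neuronal genes of the forebrain had mostly negative values, with 1 call in each of 2 lists. Lhx6, a transcription factor of migrating cortical interneurons, held 41.1, 37.1 and 32.0 CPM in control brains 1 to 3 and 23.7, 20.4 and 16.5 in CKO brains 1 to 3 (-0.86 ± 0.15; edgeR adjusted p = 0.0427). It was the 1 gene that fell among 20 interneuron lineage genes, of which 17 had negative values and the median was -0.27. Bcl11b, a transcription factor of deep-layer projection neurons, held 436, 422 and 437 CPM in control and 344, 260.4 and 311 CPM in CKO brains (-0.50 ± 0.09; 0.0480). It alone passed among 18 cortical projection neuron markers, of which 17 had negative values, with a median of -0.37. For 12 of the 18 each CKO library lay below each control library, against 7.16% of all genes. Summed over the cortical markers, control brains held 4265, 4171 and 4108 CPM and CKO brains 3689, 2915 and 3511 CPM, with CKO brain 2 the lowest. General neuronal markers had a median of -0.07 and 0 calls among 18, and Tubb3, neuronal beta-tubulin, had -0.25 ± 0.05 (0.0588). Each of the calls ended in 5 of the 6 fits without a library, at adjusted p-values of up to 0.227.

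Markers of brain region also differed between libraries. Of 16 midbrain and hindbrain identity genes tested, 0 passed, but all 16 had positive values and the median was 1.13. The sums of the list ranged from 171 to 206 in control brains and from 182 to 379 in CKO brains, in CPM, so that the groups overlapped. Summed Hox levels were 0.303, 45.1 and 10.2 CPM in control brains 1 to 3 and 0.858, 123 and 48.6 CPM in CKO brains 1 to 3. Among single genes, Hoxb4 was at 0 reads in both libraries numbered 1 and at 66 reads in CKO brain 2. Forebrain identity genes had a median of -0.08 with 0 calls among 12. With the Hox covariate the cortical list kept a median of -0.33 with 5 members lower, and without both libraries numbered 1 it had -0.38 with 1 lower. The interneuron list had -0.23 with 4 lower and -0.26 with 1 lower in the same fits. Of all genes tested, 1.36% and 0.11% were lower in these fits. The median of the midbrain and hindbrain list was 0.17 with the covariate, which is built from 7 of its genes. Fewer cells of a region and less transcript per cell cannot be told apart here either.

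**Figure D3:**
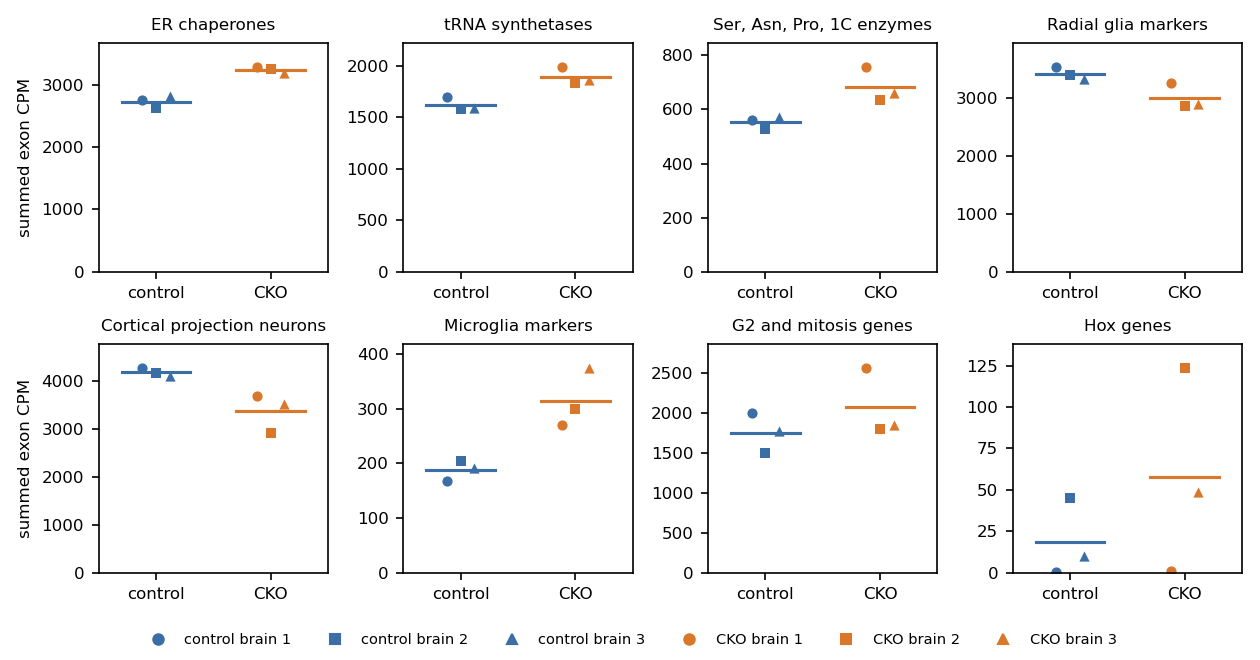
Summed exon level (normalised CPM, axes from 0) of 8 gene sets in each brain library, control in blue and CKO in orange, with a line at each group mean. The groups are apart for the ER chaperones, tRNA synthetases, the summed serine, asparagine, proline and one-carbon enzymes, radial glia, cortical neurons and microglia. Each of these sums includes members that were called singly, 5 of them in radial glia. Their separation is therefore no further support for those calls, nor a change of all members. They overlap for the G2 and mitosis genes and for the Hox genes, where both libraries numbered 1 lie near 0.

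Cell cycle genes differed between libraries within each group. G2 and mitosis genes summed to 1993, 1491 and 1770.4 CPM in control brains 1 to 3 and 2555, 1802 and 1846 CPM in CKO brains 1 to 3. The libraries numbered 1, which lack Hox reads, were the highest of each group, and the groups overlapped. Of 20 G2 and mitosis genes and 20 S phase genes, 0 passed by edgeR, yet 20 and 19 had positive values, with medians of 0.26 and 0.26. With the Hox covariate 12 of the former and 5 of the latter rose and 0 fell, where 1.64% of all genes rose and 1.36% fell. Among them Top2a, the DNA topoisomerase of dividing cells, had 0.39 ± 0.05 (edgeR adjusted p = 0.000904), the mitotic kinesin gene Kif11 0.40 ± 0.06 (0.00281) and Mki67, the antigen Ki-67, 0.31 ± 0.05 (0.00412), against 0.21 ± 0.17 for Mki67 without the covariate (0.844). Without both libraries numbered 1 the medians were 0.17 and 0.22, with 0 calls in either list. Of 14 proneural and intermediate progenitor genes tested, 0 passed and the median was 0.20, and with the covariate 4 rose, among them Neurog2 (0.41 ± 0.09; 0.0245), a transcription factor that commits progenitors to neurons.

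Genes used as markers of microglia, the resident macrophages of the brain, rose in part. Fcrls, a receptor enriched in microglia, went from 4.85, 6.74 and 7.41 CPM in control brains 1 to 3 to 13.7, 15.1 and 18.1 CPM in CKO brains 1 to 3 (1.30 ± 0.20; edgeR adjusted p = 0.0292). C3ar1, the receptor for complement C3a, went from 3.64, 3.02 and 3.94 CPM to 9.61, 7.71 and 10.9 CPM (1.40 ± 0.23; 0.0405). Ms4a6d rose from 0.152, 0.177 and 0.315 CPM to 1.72, 1.93 and 2.26 CPM (3.07 ± 0.54; 0.0427), from control counts of 1, 1 and 2 reads, so that its size depends on the prior count of the fit. No CKO library of these 3 genes fell into the control range. Lpl, lipoprotein lipase, rose by 0.81 ± 0.15 (0.0480), and it was also higher in CKO neurospheres (1.10 ± 0.26; 0.0288), so that its reads need not come from microglia. Of 23 microglia and macrophage markers tested, these 4 rose and 0 fell, with a median of 0.62. Spp1, osteopontin, had the largest value of the list, 2.12, 2.13 and 3.94 CPM in control and 30.5, 24.3 and 65.1 CPM in CKO brains, but did not pass (3.85 ± 0.57; 0.103). Other markers had smaller or negative values. The surface receptor gene Csf1r had 0.29 ± 0.15 (0.648), Cx3cr1 0.46 ± 0.15 (0.353), and P2ry12, a receptor of resting microglia, -0.63 ± 0.27 with CKO below control in every library (0.533). Levels of the list summed to 168, 205 and 193 CPM in control and 271, 300.1 and 374 CPM in CKO brains. Whether more microglia or more transcript per cell underlies this cannot be told apart, and the part of these cells in the stress genes above was not tested. The 4 calls reached adjusted p-values of up to 0.242 without single libraries.

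Immediate early genes, which are transcribed within minutes of a stimulus, included 1 call. Egr1 held 6.07, 4.26 and 3.31 CPM in control brains 1 to 3 and 10.3, 12.4 and 12.0 in CKO brains 1 to 3 (1.34 ± 0.23; edgeR adjusted p = 0.0427) and was the 1 call among 14 tested, where 0 fell. Fos held 0.303, 0.532 and 0.946 CPM in control and 3.95, 1.93 and 2.78 CPM in CKO brains (2.24 ± 0.49; 0.101), Nr4a1 had 1.09 ± 0.24 (0.0989) and Jun 0.44 ± 0.09 (0.0785). The median was 0.33, and for 6 of the 14 the CKO libraries lay above the control libraries, against 7.24% of all genes. Egr1 was called in 0 of the fits without a library, at adjusted p-values of up to 0.219.

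Intron reads, counted in the same 6 libraries and therefore not independent of the exon reads, mostly come from unspliced transcripts. Of 14024 genes tested with them, 20 were higher (0.143%) and 23 lower (0.164%). Eif2ak3 held 39.9, 37.6 and 39.9 intron CPM in control brains 1 to 3 and 57.8, 59.4 and 58.4 in CKO brains 1 to 3, so its intron change of 0.58 ± 0.07 (edgeR adjusted p = 0.00694) stood beside an exon change of 0.58 ± 0.08. Asns gave 0.95 ± 0.14 by introns (0.0252) and 0.94 ± 0.13 by exons, and Cars 0.58 ± 0.09 (0.0252) and 0.62 ± 0.10. Ptprz1, with -0.52 ± 0.08 (0.0267), Aldh1l1, with -0.91 ± 0.15 (0.0267), Ndrg2, with -1.31 ± 0.22 (0.0297), Vit, with -1.01 ± 0.12 (0.00694), and Adamts18, with -0.73 ± 0.09 (0.00694), fell in intron reads as well. Trib3 passed by introns at 3.88 ± 0.61 (0.0267), a size that depends on the prior count since the control libraries held 0, 1 and 2 intron reads, and Eif4ebp1 at 1.36 ± 0.25 (0.0489). Of the 6 fits that leave out 1 library, Vit and Adamts18 were called by introns in 5, Eif2ak3 in 4, Asns, Cars, Ptprz1, Aldh1l1 and Trib3 in 1, and Ndrg2 and Eif4ebp1 in 0, where adjusted p-values reached 0.214.

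Some genes passed by introns and not by exons. Mthfd1l, which completes the mitochondrial folate pathway by releasing formate, held 35.9, 32.3 and 34.0 intron CPM in control brains 1 to 3 and 55.1, 56.8 and 54.7 in CKO brains 1 to 3 (0.70 ± 0.07; edgeR adjusted p = 0.00602), beside 0.55 ± 0.21 by exons (0.460). Arf1, the GTPase that recruits the COPI coat, had 0.71 ± 0.09 (0.00694), and Copa, a subunit of that coat, 0.45 ± 0.06 (0.00854), with exon values of 0.26 ± 0.06 and 0.26 ± 0.05. Dusp10, a phosphatase of stress-activated kinases, had 0.84 ± 0.11 (0.00854) and Relb, an NF-kappaB subunit, 1.40 ± 0.20 (0.0245). Acss1, a mitochondrial acetyl-CoA synthetase, fell from 53.9, 49.8 and 48.2 to 30.6, 28.6 and 28.0 intron CPM (-0.80 ± 0.08; 0.00602), beside -0.75 ± 0.23 by exons (0.329). Sh3rf3 (-0.83 ± 0.09), the neurexophilin gene Nxph2 (-1.25 ± 0.16), Wdr17 (-0.60 ± 0.08) and the adaptor gene Pag1 (-0.42 ± 0.06) fell too, at adjusted p-values of 0.00694 to 0.0252. Acss1 and Mthfd1l were called in all 6 fits without a library, where the others reached up to 0.151.

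Junction-spanning reads, a subset of the exon reads that comes from spliced transcripts, gave 11 genes higher (0.113%) and 15 lower (0.154%) of 9740 tested. Fabp7 had -0.75 ± 0.09 (edgeR adjusted p = 6.34e-05), Ndrg2 -1.02 ± 0.13 (0.000205), Rnf145 0.71 ± 0.10 (0.000318), Slc7a3 3.04 ± 0.50 (0.00255) and Mthfd2 1.48 ± 0.26 (0.00574). The last stood beside an exon value of 0.69 ± 0.12. Slc7a3 held only 4, 2 and 1 junction reads in control brains 1 to 3, and Mthfd2 17, 13 and 11. Acaca, the acetyl-CoA carboxylase that feeds fatty acid synthase, rose by 0.32 ± 0.07 (0.0339), and Scfd1, a factor of vesicle fusion between ER and Golgi, by 0.55 ± 0.12 (0.0438). The Rac activator genes Tiam2 (-0.73 ± 0.12; 0.00772) and Prex1 (-0.43 ± 0.09; 0.0438), Mpped1 (-1.01 ± 0.20; 0.0127), Rlbp1 (-1.24 ± 0.28; 0.0495) and Tubb3 (-0.30 ± 0.07; 0.0495) fell in junction reads, and none of these 7 passed by exon reads. Tiam2, Mpped1 and Rlbp1 were lowest in CKO brain 2, the library with the most Hox reads. Rlbp1 held only 43, 32 and 41 junction reads in control and 17, 9 and 21 in CKO brains. For single genes, fits of junction reads that leave out 1 library are not given here.

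Whether the exon and the intron reads of a gene change by different amounts was tested with each library as its own reference. Of 12522 genes tested, 2 had an exon change above the intron change (0.016%) and 4 one below it (0.0319%). Rnf145 held 68.0, 73.1 and 68.2 intron CPM in control brains 1 to 3 and 67.0, 68.8 and 74.9 in CKO brains 1 to 3 (log2 fold change 0.01 ± 0.07), while its exon reads rose. The exon change exceeded the intron change by 0.53 ± 0.08 (edgeR adjusted p = 0.000317). Atp6v0a1, a membrane subunit of the V-ATPase that is the main form in neurons, showed the reverse. Its exon reads fell from 162, 179 and 165 CPM in control to 111, 130.3 and 130.5 CPM in CKO brains, its intron reads gave 167, 175 and 166 and 158, 166 and 183 CPM, and the difference was -0.44 ± 0.07 (adjusted p = 0.000317). The control and CKO ranges of its introns overlapped and those of its exons did not. These 2 differences were called in all 6 fits without a library, at adjusted p-values of up to 0.0117 and 0.0117, and also with junction reads in place of exon reads, at 0.70 (4.03e-05) and -0.50 (0.00151). Reads of retained introns, overlapping genes or unannotated exons would also enter the intron counts.

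The other 4 differences changed with a setting. Arf1 rose more in introns than in exons (-0.45 ± 0.08; edgeR adjusted p = 0.00157) and was called in all 6 fits without a library, but not with junction reads (-0.37; 0.817). Snn, the gene of the small membrane protein stannin, had 0.41 ± 0.08 (0.0134), which with junction reads was 0.02 (0.997), and it was not called without control brain 2 or 3 or without CKO brain 1 or 2, at adjusted p-values of up to 0.381. Neb had -0.83 ± 0.17 (0.0203) and -1.40 with junction reads (4.74e-05), and the call ended without control brain 2 or 3 or CKO brain 1 or 3, at the furthest without CKO brain 1 (-0.64; 0.693). Shisa3 had -1.63 ± 0.32 (0.0143) from only 17 to 26 intron reads per library, and the call ended without control brain 3, CKO brain 3 or CKO brain 1 (at the furthest, 0.584).

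**Figure D4:**
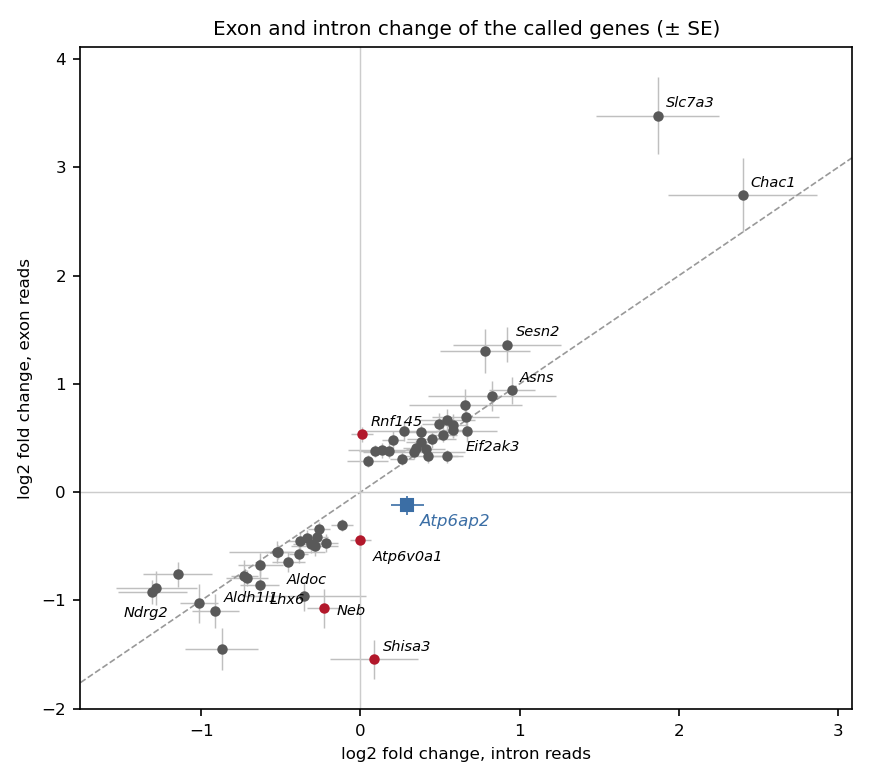
Exon against intron log2 fold change (CKO over control brain, ± SE) of the called genes that could be tested in both, with Atp6ap2 as a blue square and genes whose exon and intron changes differ at an adjusted p under 0.05 in red. Eif2ak3 and Asns lie near the dashed line of equal change, and Rnf145, Atp6v0a1, Neb and Shisa3 lie near an intron change of 0.

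The neurospheres allow the same contrast in cultured neural stem cells. Of 13316 genes tested there, 14.7% were higher and 12% lower in CKO. One control neurosphere library, number 1, held 1 read of Y-linked genes, against 1767 to 2992 in the other 5, which goes against its label male, so values are also given without both neurosphere libraries numbered 1. In neurospheres Atp6ap2 fell (-0.81 ± 0.11; edgeR adjusted p = 0.00965), and the effect in brain lay above it by 0.68 ± 0.15 (adjusted p of the difference 0.0155). Without both libraries the difference was 0.82 ± 0.13 (0.000513). Of the 33 genes that rose in brain, 29 were tested in neurospheres, where 9 were higher and 0 lower, and of the 27 that fell, 1 was higher and 11 lower. Without both libraries numbered 1 these counts were 18 and 1, and 1 and 22, while 28.1% of all genes tested were higher and 27.3% lower.

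The difference between the effects in brain and in neurospheres was tested for 14415 genes in 1 fit of all 12 libraries, and lay above 0 in 6.06% and below 0 in 7.21%. It passed for 8 of the 33 risen genes, above 0 for 7 of them, and for 2 of the 27 fallen genes, below 0 for 1. These genes were chosen by their brain effect, and the same brain libraries enter the difference. It therefore leans towards the sign of the brain effect beforehand, and these counts are no independent support for it. Without both neurosphere libraries numbered 1 it lay above 0 in 19.1% of all genes tested and below 0 in 15.4%. It then passed for 15 of the risen genes, above 0 for 12, and for 14 of the fallen genes, below 0 for 1. Slc7a3 had an effect of 3.48 in brain and -0.70 ± 0.28 in neurospheres, Chac1 2.75 and -0.34 ± 0.28, and Asns 0.94 and 0.10 ± 0.15. Those 3 differences passed by edgeR, at adjusted p-values of 0.00275, 0.00497 and 0.0278. The 3 neurosphere effects alone did not pass, at edgeR adjusted p-values of 0.0997, 0.385 and 0.653. Shisa3 fell in brain and was higher in CKO neurospheres (2.58 ± 0.54; 0.0210). Hspa5, by contrast, was higher in neurospheres too (0.71 ± 0.10; 0.0101), as was Atf4 (0.46 ± 0.11; 0.0261), with differences that did not pass (0.0812 and 0.675). Ndrg2 and Ttyh1 fell in both, with -2.79 ± 0.71 (0.0327) and -2.26 ± 0.64 (0.0431) in neurospheres, and Fabp7 had -0.28 ± 0.28 there and did not pass (0.470).

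**Figure D5:**
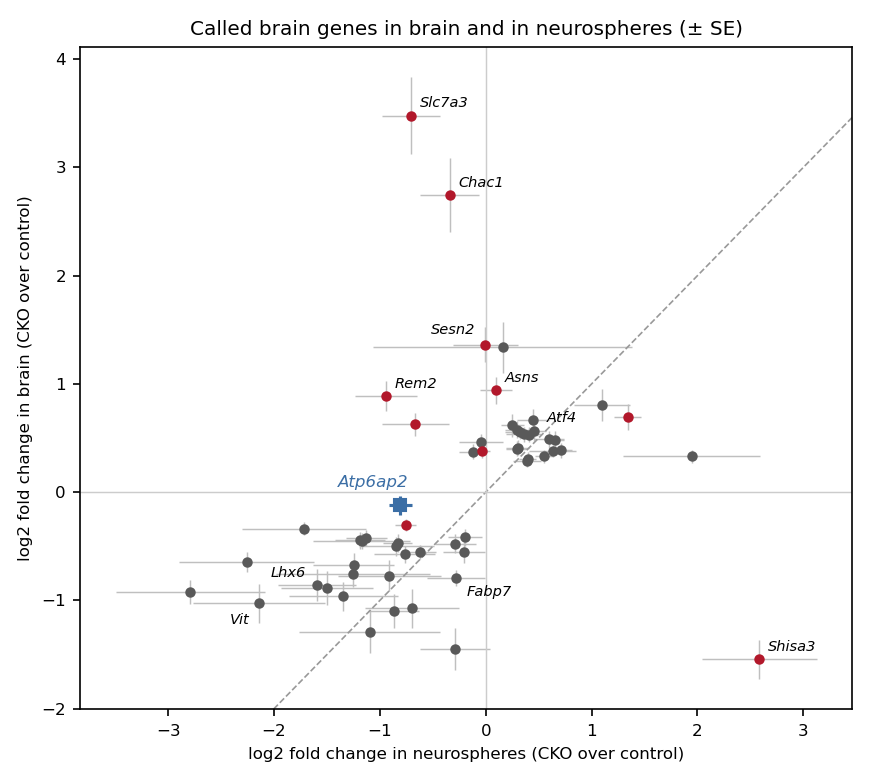
Log2 fold change (CKO over control, ± SE) of the called brain genes in brain against neurospheres, with Atp6ap2 as a blue square and genes whose 2 effects differ at an adjusted p under 0.05 in red. Slc7a3, Chac1, Sesn2 and Rem2 lie high with neurosphere values at or below 0, and Shisa3 lies alone at the lower right.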

How the data were processed

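RNA was measured in 6 embryonic brain and 6 neurosphere libraries, rRNA-depleted with a directional kit, per the labels' protocols. Counts of exon, intron and exon-exon reads per gene were deposited by the authors, unnormalised per the file headers. The builds GRCm38 and mm10 are named in the submitters' processing notes. No source used here states the aligner or whether reads were counted by strand. The deposited p-value and signed fold change score come from the authors' EDGE test, per the file headers, and served only to set their calls and the p of Atp6ap2 beside the ones computed here. The table listed 25655 genes, 3731 of them with exon length 0 and without exon reads, and 138 per-sample columns were not used.

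Genes were filtered with filterByExpr, TMM-scaled and tested with the edgeR 4.0.16 quasi-likelihood test (R 4.3.3), with Benjamini-Hochberg adjustment over all genes tested and a threshold of 0.05. Exon against intron change was an interaction with the library as a block, and brain against neurospheres an interaction over 12 libraries. Exon-exon and intron reads come from the same libraries as the exon reads and are no independent replication. Depth was 5669338 to 6675874 exon reads per brain library. The fits were run on simulated counts as a check of the code. These had the same fixed spread for every gene and in both tissues, with changes only in genes with many reads. Most differences between libraries seen here were left out, so the simulation does not bear on the calls. Alternatives were other size factors, DESeq2 1.42.0, no low-count filter, a replicate block, leaving out each library, uniquely placed reads, other thresholds, and 2 chosen after seeing the data (a Hox covariate and leaving out both brain libraries numbered 1). All genes called in the exon fit are named, with values per library for the 15 per direction with the lowest p. Of each list the called members and up to 4 others by p were to be named. Eif2ak1, Eif2ak2, Eif2ak4, Ndrg1, Sox2, Pax6, Hes1, Lhx2, Nes, Slc1a2, Slc1a3, Neurog2, Top2a, Mki67, Kif11, P2ry12, Csf1r, Cx3cr1, Hoxb4 and 4 listed genes too low to test were added after their values were seen. Phgdh, Psat1, Psph, Apoe, Id3 and Gja1 were added likewise. Some listed genes are not reported here by name. Members and gene lists were chosen with earlier results of these data known.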

Additional observations from a re-analysis of the deposited data

Results flagged for a closer look

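The effect of the CKO in brain and that in neurospheres differed, by the edgeR interaction test over all 12 libraries, for 6 of the genes described in every brain library. Those genes were chosen by their effect in the same brain libraries. The differences thus lean towards the sign of the brain effect beforehand and are no independent support for it. All values are log2 fold changes, CKO over control, and the difference is brain minus neurospheres. Slc7a3 differed by 4.19 ± 0.51, with 3.48 in brain and -0.70 in neurospheres (adjusted p = 0.00275). Chac1 differed by 3.09 ± 0.48, with 2.75 in brain and -0.34 in neurospheres (adjusted p = 0.00497). Rem2 differed by 1.83 ± 0.27, with 0.89 in brain and -0.94 in neurospheres (adjusted p = 0.00443). These transporter, glutathione and calcium channel regulator genes thus rose in brain, with neurosphere values below 0 that did not pass by themselves. The edgeR adjusted p-values in neurospheres were 0.0997 for Slc7a3, 0.385 for Chac1 and 0.0570 for Rem2. Shisa3 differed by -4.14 ± 0.58, with -1.54 in brain and 2.58 in neurospheres (adjusted p = 0.00440), the 1 gene of the 6 that fell in brain. Asns differed by 0.83 ± 0.21, with 0.94 in brain and 0.10 in neurospheres (adjusted p = 0.0278). Sesn2 differed by 1.36 ± 0.39, with 1.36 in brain and -0.0036 in neurospheres (adjusted p = 0.0428). The first 4 were called in all 12 fits that leave out 1 library. Asns was called in 6 of them, with adjusted p-values of up to 0.0738, and Sesn2 in 2, with up to 0.0971. Without both neurosphere libraries numbered 1, the control one of which held 1 read of Y-linked genes, the differences were 4.63 for Slc7a3, 3.27 for Chac1, 1.74 for Rem2, -4.93 for Shisa3, 0.86 for Asns and 0.89 for Sesn2, and each passed. Tissue and age differ together between the brains and the neurospheres, as does culture, and these cannot be told apart.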

How the results depend on the processing

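Over 854 alternatives for Atp6ap2 and the 60 called genes, 0 reversed, 388 kept the sign without passing and 466 gave the same call. The alternatives refit the same reads or a part of them, and the groups did not overlap for any called gene. That 0 reversed was thus all but fixed beforehand and is no sign of stability. By DESeq2, 57 of the 60 were also called. Counts, given as higher and lower in CKO, moved more. Leaving out 1 library gave 2 to 12 and 1 to 24 with exon reads, 1 to 16 and 1 to 17 with intron reads and 5 to 13 and 6 to 18 with exon-exon reads, where fewer samples enter each fit. Exon reads gave 55 and 55 by DESeq2, 61 and 41 at an adjusted p under 0.1, and 1 and 0 with all 12 libraries in 1 edgeR fit, where the spread is shared with the neurospheres and an unadjusted p under 0.05 was found for 300 and 223. Without a low-count filter intron reads gave 36 and 47 and exon-exon reads 38 and 42, and DESeq2 gave 54 lower by introns and 7 and 9 by exon-exon reads. Of the alternatives chosen after seeing the data, the Hox covariate gave 223 and 184 (exon), 64 and 108 (intron) and 65 and 54 (exon-exon), and leaving out both brain libraries numbered 1 gave 5 and 15, 1 and 1, and 1 and 9. For exon against intron change, 1 gene lay above and 2 below with exon-exon reads in place of exon reads, and 1 to 4 above and 3 to 9 below without single libraries. The effect in brain was higher than in neurospheres for 873 genes and lower for 1040, against 2718 and 2194 without both neurosphere libraries numbered 1, 1361 higher by DESeq2, and 369 to 2126 and 477 to 1877 without single libraries. Where no construction is named, the cause was not tested. With the number as a replicate block, exon reads gave 108 and 85, intron reads 59 and 80 and exon-exon reads 35 and 34, and all 60 exon calls remained. Same-numbered control and CKO brains deviated with correlations of 0.41, 0.20 and -0.04, and not every library correlated best with its own number. The first principal component, the Hox sums and the G2 sums of the brains do order the numbers alike in both groups, while the labels name nothing that a number stands for. Few reads limit Slc7a3, Ms4a6d, Fos and Trib3 in control brains.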

Other observations

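Several gene lists held no call by edgeR in brain. Of 25 lysosomal proteins tested, 0 were called, yet 21 had positive values, the median log2 fold change was 0.13, and the groups did not overlap, upwards, for 9, against 7.24% of all genes. Among them were Ctsd (0.47 ± 0.12; 0.213) and Gusb (0.44 ± 0.13; 0.232), given with SE and adjusted p. Autophagy genes had a median of -0.03 over 19 tested, genes of cholesterol synthesis -0.0022 over 20, p53 targets 0.12 over 16 and NRF2 targets 0.01 over 13. Of the renin-angiotensin genes 5 were tested, with a median of -0.14. Among other cell types, oligodendrocyte lineage markers had a median of -0.05 over 12, endothelial markers 0.11 over 14, pericyte and meningeal markers 0.09 over 16, choroid plexus and ependymal markers 0.13 over 10, erythroid genes 0.16 over 9 and interferon-stimulated genes 0.33 over 6. The median over all genes was 0.0032.

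In the authors' deposited table, at a corrected p under 0.05, 79 genes were higher and 66 lower, against 33 and 27 here. Atp6ap2 had an unadjusted p of 0.266 in the authors' deposited table.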
